A study of Mus musculus with 3 samples.

Results

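Wnt4, Wnt5a, Wnt7a, Wnt7b, Wnt9a and Wnt10a, 6 of the 19 Wnt ligand genes among the 32285 genes listed, were followed across the cell types of the mouse medial prefrontal cortex. They were taken by symbol, and the set was chosen partly on measured values of these same libraries: Wnt4 was already known to be higher in neurons of the estrus library. Its estrus ratios are therefore given as a description. Wnt genes encode secreted, lipid-modified glycoproteins that bind Frizzled receptors and co-receptors on nearby cells. In the β-catenin branch this stabilises β-catenin and turns on TCF/LEF target genes, and in other branches it acts on the cytoskeleton and on calcium. In the brain, Wnts are known for shaping synapses and for building and keeping the blood-brain barrier.

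Droplet single-cell RNA sequencing was used to compare medial prefrontal neurons between stages of the estrous cycle and between the sexes; the tissue was digested with papain and cells were spun through Percoll. There was 1 library from 2 pooled female mice in estrus, 1 from 2 pooled females in diestrus and 1 from 2 pooled males. Estrus is the receptive stage of the mouse cycle and diestrus a non-receptive one. The labels name no altered gene and no agent, and the sources used here do not give strain or age. With 1 library a group there was no replicate check: a difference compares libraries, which differ in group, in mice and in preparation at once, and these cannot be told apart. All intervals below are 95% intervals and cover counting error only.

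The libraries held 115632520 to 152291602 counts of unique molecular identifiers (UMIs), and 12300 estrus, 14129 diestrus and 15565 male cells were retained. The labels call the samples total neurons, yet most retained cells carried markers of glia, vessels or immune cells. Glutamatergic neurons numbered 1348 in estrus, 1732 in diestrus and 1740 in male. GABAergic neurons numbered 165, 272 and 312 in the same order. Glutamatergic neurons were deepest in the estrus library, with a median of 37500.5 UMIs per cell in estrus, 25345 in diestrus and 10932.5 in male. Clusters left unnamed took 8.17% of the estrus library, 27.0% of the diestrus library and 29.6% of the male library. Endothelial cells of the estrus library stood apart, with 2249 of 2723 in a cluster that held 33 diestrus and 13 male cells. Xist was read 64109 times in estrus, 74116 times in diestrus and 9 times in male, and the Y-linked gene Eif2s3y gave 0, 0 and 9011 UMIs, as the sex labels state. Libraries shared 68 to 97 cell barcodes in pairs.

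The promoters of Wnt4, Wnt7a and Wnt9a are shown because only these members were found in the promoter table used. Wnt4 had the high estrus level among the neuronal ligands. Wnt9a, also read mainly in glutamatergic neurons, did not, and Wnt7a was read mainly in astrocytes. RefSeq's promoter table matched 3 of the 6 genes, on build GRCm38.p6. Each stretch is printed 5′ to 3′ on the gene's strand and ends at the gene's annotated start in GENCODE or before it. Capitals mark GC boxes (GGGCGG on either strand) and the estrogen response element half-site (GGTCA on either strand). The stretches lie at chr4:137277385-137277488 (plus strand), chr6:91411364-91411603 (minus strand) and chr11:59306680-59306927 (plus strand).
Wnt4: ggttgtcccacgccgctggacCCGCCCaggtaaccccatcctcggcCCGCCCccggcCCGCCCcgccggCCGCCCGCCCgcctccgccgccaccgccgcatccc
Wnt7a: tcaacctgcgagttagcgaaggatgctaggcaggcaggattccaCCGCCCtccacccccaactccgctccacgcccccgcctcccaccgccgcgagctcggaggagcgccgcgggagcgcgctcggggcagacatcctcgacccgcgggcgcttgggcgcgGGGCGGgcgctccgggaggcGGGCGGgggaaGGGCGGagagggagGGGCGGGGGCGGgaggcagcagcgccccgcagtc
Wnt9a: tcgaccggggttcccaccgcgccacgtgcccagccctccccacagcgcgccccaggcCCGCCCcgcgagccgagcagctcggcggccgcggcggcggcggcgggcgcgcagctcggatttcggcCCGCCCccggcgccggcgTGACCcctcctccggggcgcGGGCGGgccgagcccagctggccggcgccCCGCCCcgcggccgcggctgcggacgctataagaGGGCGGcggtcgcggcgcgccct

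All 3 promoters were rich in G and C over the 250 bases before the RefSeq start, with 85.2% for Wnt4, 77.6% for Wnt7a and 84.4% for Wnt9a, against a median of 52.4% over the 32851 promoters in the table. GC boxes numbered 8 for Wnt4, 6 for Wnt7a and 5 for Wnt9a in that window, overlapping matches counted, and 32.7% of all promoters held at least 1. The Wnt4 window runs on to chr4:137277634, past the gene's GENCODE start at 137277489. Only its first 104 bases, with 5 of the 8 GC boxes, are therefore printed, against 240 bases for Wnt7a and 248 for Wnt9a. The full estrogen response element (GGTCA and TGACC with 3 bases between them) was in none of the 3 and in 0.0639% of all promoters. Its half-site was in the Wnt9a promoter once and in 35.2% of all promoters. The cAMP response element (TGACGTCA) and the TCF/LEF site (CTTTGAT) were in none of the 3, and in 1.55% and 3.21% of all promoters. These are letters in a short window and say nothing of where a factor binds.

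The 6 genes lie on 6 chromosomes of mm10. Wnt4 (ENSMUSG00000036856) spans chr4:137277489-137299726 and Wnt10a (ENSMUSG00000026167) chr1:74791516-74804179. Wnt9a (ENSMUSG00000000126) spans chr11:59306928-59333552 and Wnt7b (ENSMUSG00000022382) chr15:85535437-85582473. Wnt7a (ENSMUSG00000030093) spans chr6:91363981-91411363 and Wnt5a (ENSMUSG00000021994) chr14:28504750-28527448. Wnt7b and Wnt7a are on the minus strand and the other 4 on the plus strand. AU022754 overlaps Wnt7b and Gm2670 overlaps Wnt5a, both also listed in the matrices, so the split of reads inside those overlaps is uncertain.

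The ligands divided the tissue between them. Levels are UMIs of the gene per 1000000 UMIs of nuclear genes (CPM), summed over the cells of a type in a library. Wnt4, Wnt9a, Wnt10a and Wnt7b came mainly from glutamatergic neurons, Wnt7a from astrocytes and Wnt5a from endothelial cells. Glutamatergic neurons held 80.9% of the Wnt4 UMIs of retained cells in estrus, 65.0% in diestrus and 62.0% in male. For Wnt9a they held 79.5%, 75.9% and 66.9%, for Wnt10a 79.6%, 67.3% and 63.4%, and for Wnt7b 69.1%, 62.8% and 48.6% in the same order of libraries. Astrocytes held 68.4%, 53.8% and 57.0% of the Wnt7a UMIs, and endothelial cells 60.4%, 39.2% and 37.4% of the Wnt5a UMIs. Unnamed cells held a further 6.57% to 22.6% of each gene. These shares move with how many cells of each type a library held.

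**Figure D1:**
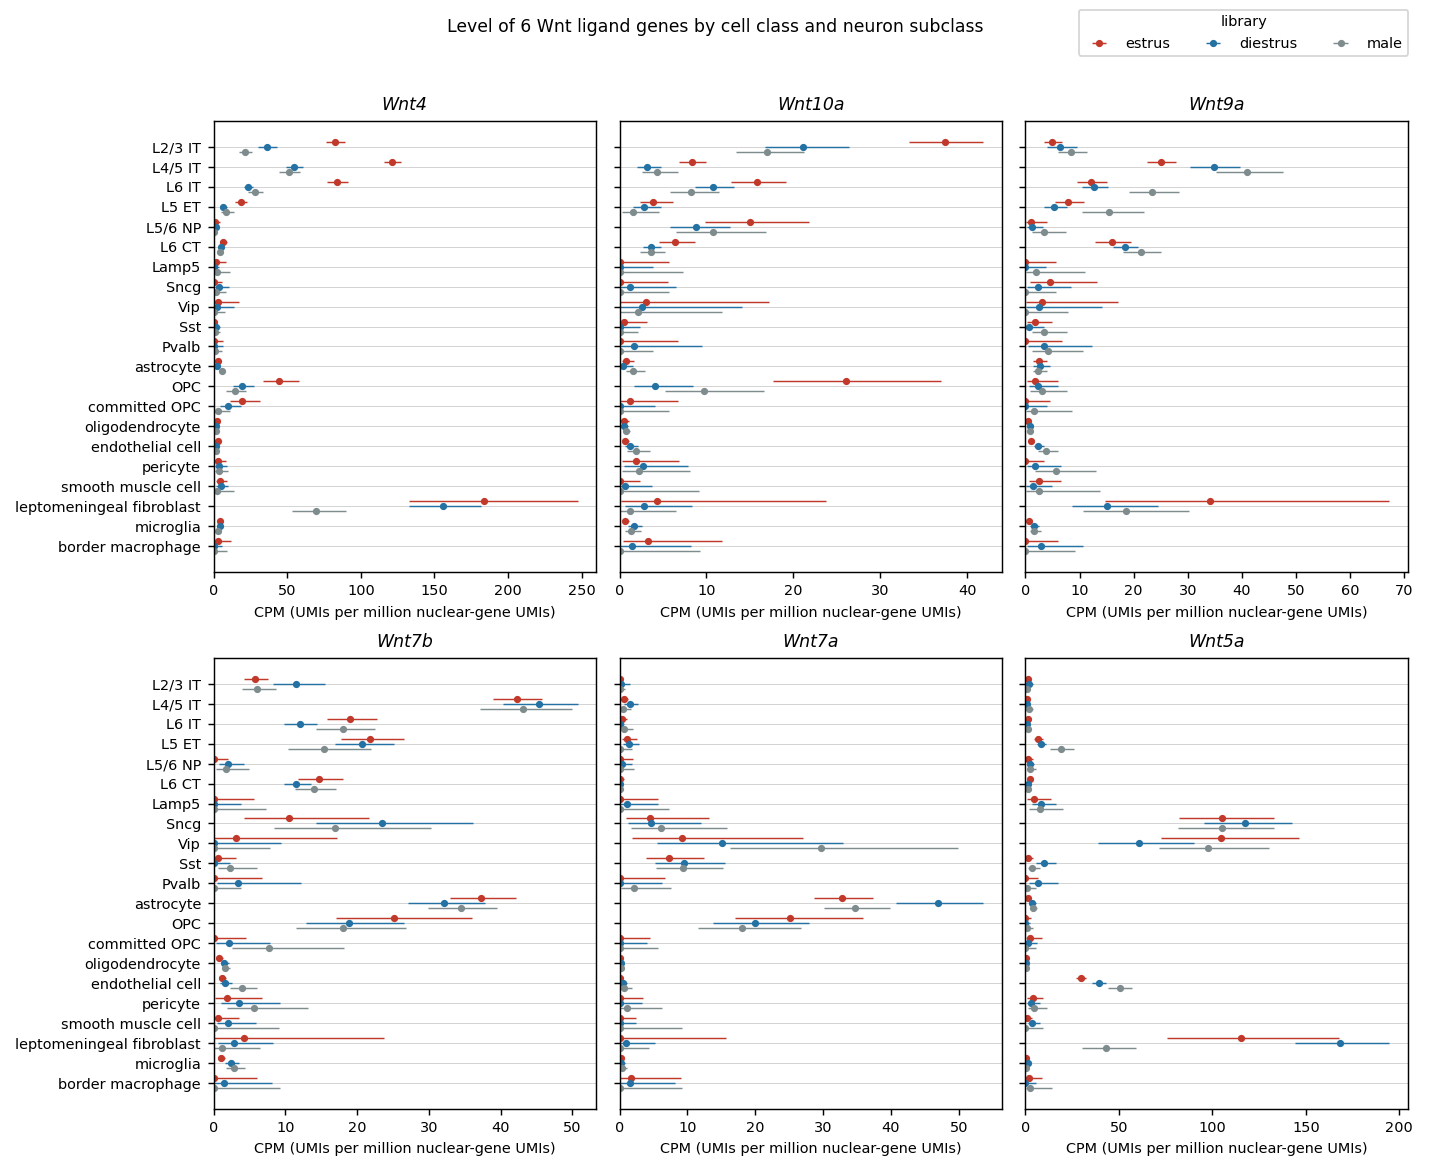
Level of each of the 6 Wnt genes (CPM, horizontal axis from 0, its own scale per gene) in cell classes and neuron subclasses (vertical axis) of the estrus, diestrus and male libraries; bars are exact Poisson 95% intervals. Wnt4 stands highest in leptomeningeal fibroblasts and in the intratelencephalic (IT) neurons of layers 2 to 6, Wnt7a in astrocytes, and Wnt5a in fibroblasts, Sncg and Vip interneurons and endothelial cells.

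Wnt4, a ligand known from female reproductive tract and kidney development, had the largest ratios of the 5 members measured in glutamatergic neurons in both estrus comparisons. It gave 4029 UMIs in estrus, 1161 in diestrus and 697 in male, which are levels of 78.9 CPM (76.5 to 81.4), 24.2 CPM (22.8 to 25.6) and 24.3 CPM (22.5 to 26.2). The estrus library stood alone and the other two were at 1 level. With 1 CPM added to each side, the log2 ratio was 1.67 (interval of the ratio without the added CPM, 1.61 to 1.80) for estrus over diestrus and 1.66 (1.58 to 1.82) for estrus over male, and -0.01 (-0.14 to 0.13) for diestrus over male. The 2 estrus ratios share the estrus library.

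With 1 CPM added, Wnt4 was the only one of the 5 members measured in glutamatergic neurons that differed by at least 2-fold (a log2 ratio of 1 or more, or of -1 or less, among genes with at least 100 UMIs in the pair). Over all genes measured in these neurons, 1.13% did so for estrus over diestrus, 2.94% for estrus over male and 0.242% for diestrus over male, where no member did. Since Wnt4's difference chose the set, nothing is read from its own count. Just outside the limit stood Wnt10a, with a log2 ratio of 0.98 for estrus over diestrus and 0.81 for estrus over male. Its call depends on the added CPM: with 0.1 CPM added, estrus over diestrus was 1.07. Wnt7a, with 6 to 23 UMIs in these neurons, was too sparse to enter.

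**Figure D2:**
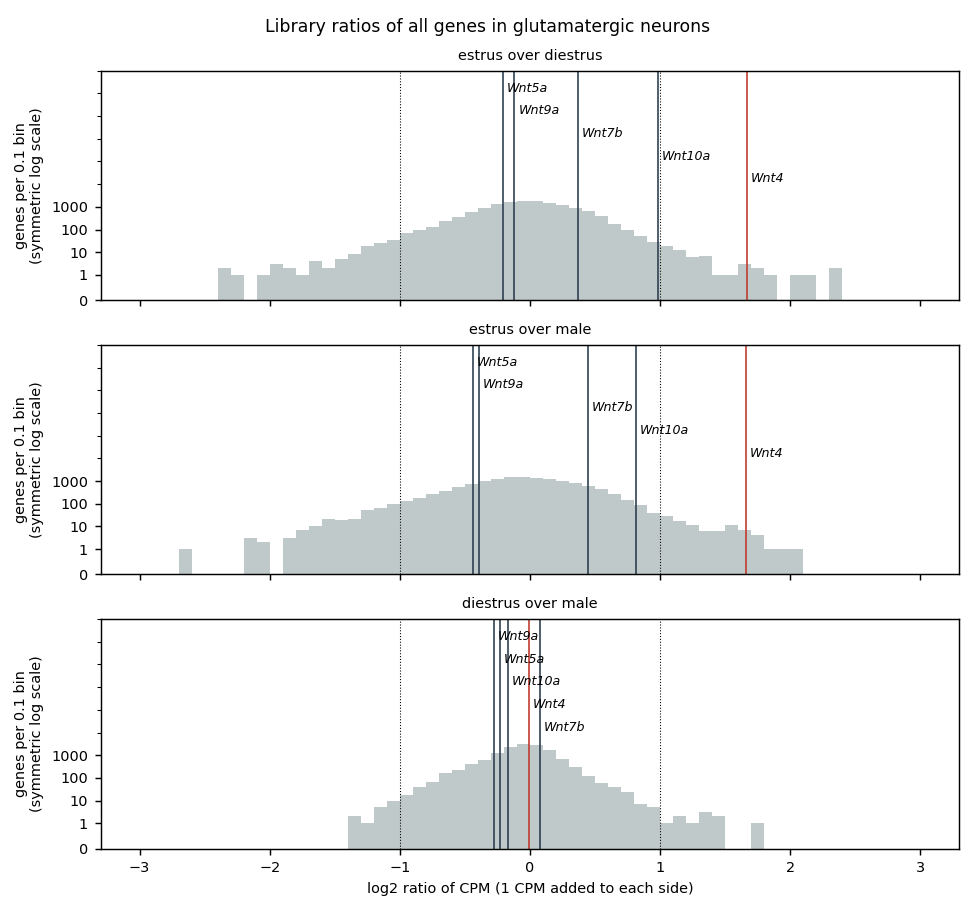
Log2 ratio of CPM between libraries in glutamatergic neurons (horizontal axis) for all genes with at least 100 UMIs in the pair (grey, number of genes per bin of 0.1, symmetric log scale), with lines at the measured Wnt members; dotted lines mark a 2-fold difference. Wnt4 lies at 1.67 and 1.66 in the 2 estrus comparisons and at -0.01 in diestrus over male, and Wnt10a just inside the dotted line in estrus over diestrus.

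Within the glutamatergic subclasses of at least 20 cells in every library, Wnt4 differed by class of projection. It was read in intratelencephalic (IT) neurons, which project within the cortex and to the striatum, far more than in neurons that leave the telencephalon. In layer 4/5 IT-like neurons it was at 121 CPM in estrus, 54.8 CPM in diestrus and 51.2 CPM in male. In layer 6 IT-like neurons it was at 83.8, 23.5 and 28.2 CPM, and in layer 2/3 IT-like neurons at 82.7, 36.2 and 21.5 CPM. Estrus was the highest library in each of these. Between the other two, the interval of the ratio lay clear of 0 in layer 2/3, where diestrus over male was 0.73 (0.37 to 1.14), and included 0 in layers 4/5 and 6.

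Layer 5 extratelencephalic (ET) neurons, which project to the brainstem and spinal cord, held 18.4 CPM of Wnt4 in estrus, 6.64 CPM in diestrus and 8.72 CPM in male. Layer 6 corticothalamic (CT) neurons held 6.5, 5.07 and 4.13 CPM. Near-projecting (NP) neurons of layers 5 and 6 gave 2 UMIs in estrus, 5 in diestrus and 0 in male, where 0 allows up to 1.70 CPM. Microglia, taken as the level that free RNA gives, read 4.44 CPM in estrus, 4.09 CPM in diestrus and 2.63 CPM in male. The CT levels lay a little above those of microglia and the NP levels below them. Microglia were shallower, with medians of 5325.5, 4576.5 and 3567 UMIs per cell against 31288.5, 27228 and 11104.5 in CT neurons. GABAergic neurons, nearer in depth to CT neurons, read 1.20, 1.49 and 1.11 CPM of Wnt4, below the CT levels in every library. Whether the CT levels exceed free RNA was not tested. Layer 6b neurons, too few to compare with 1 estrus cell, held 33.6 CPM in 25 diestrus cells and 21.7 CPM in 22 male cells, which is within the range of the IT neurons of those libraries.

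**Figure D3:**
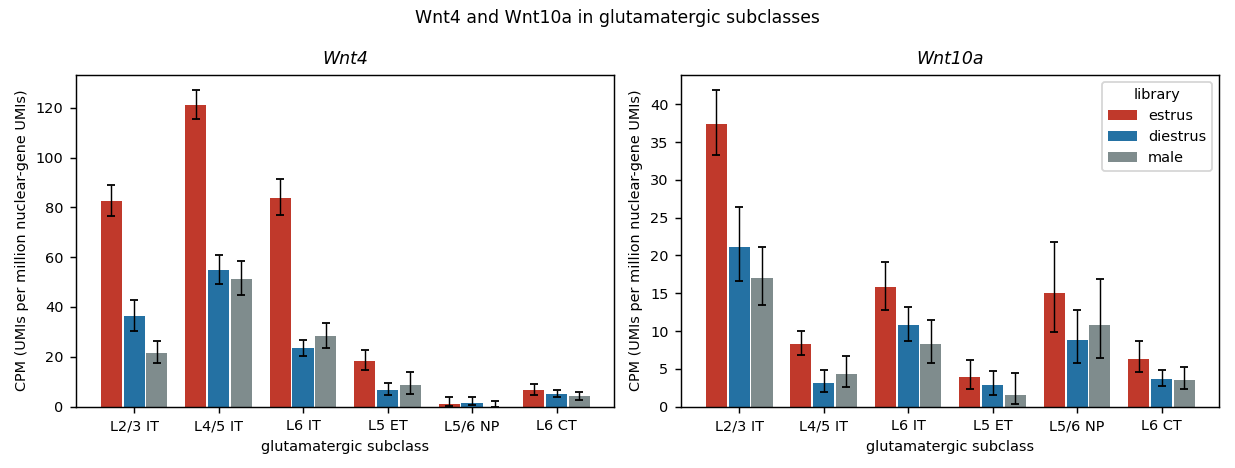
Wnt4 (left) and Wnt10a (right) in 6 glutamatergic subclasses; bars give CPM from 0 in the estrus, diestrus and male libraries, and whiskers are exact Poisson 95% intervals. Wnt4 is high in the 3 IT subclasses, and the estrus bar is the highest in all but L5/6 NP; Wnt10a is highest in L2/3 IT, at 37.4 CPM in estrus, 21.1 CPM in diestrus and 17.0 CPM in male.

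The log2 ratio of Wnt4 for estrus over diestrus was 1.79 (1.60 to 2.07) in layer 6 IT, 1.17 (0.92 to 1.47) in layer 2/3 IT, 1.13 (0.98 to 1.31) in layer 4/5 IT and 1.34 (0.87 to 2.10) in layer 5 ET neurons. For estrus over male it was 1.90 (1.64 to 2.26) in layer 2/3 IT, 1.54 (1.29 to 1.87) in layer 6 IT, 1.23 (1.04 to 1.45) in layer 4/5 IT and 1.00 (0.31 to 1.92) in layer 5 ET. In layer 6 CT neurons it was 0.30 (-0.25 to 0.95) for estrus over diestrus, an interval that includes 0. The make-up of the class moved with the ratio: layer 4/5 IT neurons, the subclass with most Wnt4, numbered 331 of 1348 in estrus, 222 of 1732 in diestrus and 315 of 1740 in male. With the 6 subclasses weighted alike the Wnt4 level was 52.3 CPM in estrus, 21.3 CPM in diestrus and 18.9 CPM in male, and its log2 ratio 1.26 for estrus over diestrus and 1.42 for estrus over male.

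The layer 4/5 and layer 2/3 IT subclasses each joined a cluster of many UMIs per cell and one of few, which the libraries filled unevenly. The deeper layer 4/5 IT cluster, with a median of 48338 UMIs per cell in estrus, 45416 in diestrus and 15666 in male, was led by Il1rapl2, Cdkn1c and Sccpdh. Wnt4 was among its 10 leading genes, although no Wnt gene was used for clustering. It held 271 estrus, 140 diestrus and 145 male cells, against 60, 82 and 170 in the shallower one. Within the deeper cluster Wnt4 was at 122 CPM in estrus, 56.2 CPM in diestrus and 57.0 CPM in male, and within the shallower one at 88.6, 44.4 and 32.3 CPM. In layer 2/3 the deeper cluster, led by Calb1 and Wfs1, held 223 estrus, 104 diestrus and 144 male cells, with Wnt4 at 83.8, 35.9 and 20.5 CPM. The shallower one held 41, 66 and 213 cells, with Wnt4 at 61.1, 37.8 and 23.9 CPM. Estrus was the highest library in all 4 clusters. A further glutamatergic cluster without a subclass name, led by Tnnc1, Medag and Krt12, read 99.96 CPM in estrus, 46.8 CPM in diestrus and 47.3 CPM in male.

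Per cell, a Wnt4 UMI was seen in 61.8% of estrus, 28.6% of diestrus and 22.1% of male glutamatergic neurons, shares that depth alone can move. With each neuron thinned to 5000 UMIs (37 estrus, 169 diestrus and 451 male neurons were too shallow and left out), the shares were 26.9% (24.5 to 29.4) in estrus, 9.09% (7.71 to 10.6) in diestrus and 9.78% (8.21 to 11.5) in male. In microglia thinned alike they were 1.94%, 2.10% and 2.15%, with unthinned medians of 5325.5, 4576.5 and 3567 UMIs per cell. The neurons stood above microglia in every library, and by most in estrus. Of layer 4/5 IT neurons, 41.8% in estrus, 18.2% in diestrus and 22.2% in male had a Wnt4 UMI at this depth.

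**Figure D4:**
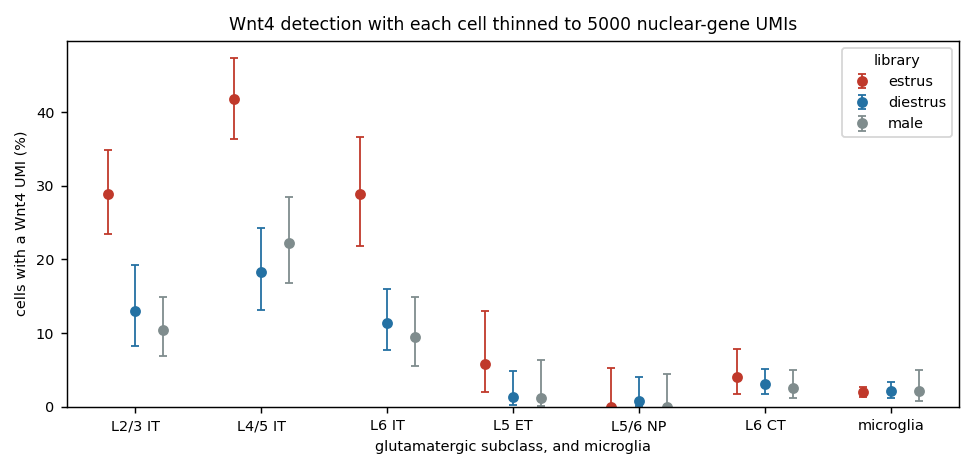
Share of cells with a Wnt4 UMI (vertical axis, percent, from 0) after each cell was thinned to 5000 nuclear-gene UMIs, by glutamatergic subclass and in microglia, for the estrus, diestrus and male libraries; whiskers are Clopper-Pearson 95% intervals. Estrus lies above both other libraries in the 3 IT subclasses, while L5/6 NP and L6 CT lie near microglia.

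Cells with many Wnt4 molecules were mostly estrus cells, in the library of greatest depth. At least 5 UMIs were counted in 352 of 1348 estrus neurons (26.1%), in 55 of 1732 diestrus neurons (3.18%) and in 23 of 1740 male neurons (1.32%), without thinning. The maximum per neuron was 23 Wnt4 UMIs in estrus, 13 in diestrus and 10 in male.

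Other measures moved with the libraries too. In glutamatergic neurons, 8 immediate early genes, which report recent activity or handling, summed to 946 CPM in estrus, 999 CPM in diestrus and 621 CPM in male, with estrus and diestrus close together and male lowest. The 5 precursor markers summed to 3.92, 5.17 and 6.13 CPM there and the 6 fibroblast markers to 2.27, 2.75 and 4.63 CPM, both lowest in estrus, with no marker at 0 in any library. Mitochondrial genes took 3.27% of neuronal UMIs in estrus, 4.10% in diestrus and 4.27% in male. The part of these measures in the Wnt4 levels was not tested. With each library scaled by edgeR's TMM factors instead of its total, the median of all genes moved by 0.04 for estrus over diestrus and by 0.13 for estrus over male on the log2 scale.

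Outside neurons Wnt4 was read in fibroblasts, in cells of the oligodendrocyte lineage and in ependymal cells. Vascular leptomeningeal fibroblasts, the collagen-making cells of the brain's coverings and vessels, held 184 CPM in estrus (43 UMIs, 32 cells), 156 CPM in diestrus (165 UMIs, 155 cells) and 69.7 CPM in male (60 UMIs, 105 cells). Here both female libraries lay above male, with log2 ratios of 1.38 (0.80 to 1.99) for estrus over male and 1.15 (0.73 to 1.61) for diestrus over male. The fibroblasts were not divided further, and their make-up was not compared between libraries. Oligodendrocyte precursors held 44.5 CPM in estrus, 19.4 CPM in diestrus and 14.2 CPM in male, from 53, 33 and 19 UMIs. Their log2 ratios were 1.16 (0.54 to 1.87) for estrus over diestrus and 1.58 (0.86 to 2.48) for estrus over male. Committed precursors, the next stage of that lineage, held 19.4 CPM in estrus, 9.84 CPM in diestrus and 3.11 CPM in male, from 16, 9 and 2 UMIs. Ependymal cells, the ciliated lining of the ventricles, were found only in the diestrus library, 88 in all, and held 67.0 CPM (50.2 to 87.6). GABAergic neurons gave only 5 Wnt4 UMIs in estrus, 7 in diestrus and 5 in male.

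Wnt10a, a ligand known for tooth, skin and hair development, had the next largest estrus ratios. In glutamatergic neurons it was at 14.9 CPM in estrus (13.9 to 16.0), 7.06 CPM in diestrus (6.33 to 7.86) and 8.08 CPM in male (7.08 to 9.19). Estrus was again above the other two, whose log2 ratio was -0.17 (-0.44 to 0.05) for diestrus over male. Its estrus ratios had intervals of 0.89 to 1.27 over diestrus and 0.67 to 1.10 over male.

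Wnt10a shared layers 2/3 and 6 IT with Wnt4 and differed from it elsewhere. It was highest in layer 2/3 IT neurons, at 37.4 CPM in estrus, 21.1 CPM in diestrus and 17.0 CPM in male. Layer 6 IT neurons held 15.8, 10.8 and 8.24 CPM, and near-projecting neurons, which lacked Wnt4, 15.0, 8.76 and 10.8 CPM. Layer 4/5 IT neurons, with most Wnt4, held only 8.32, 3.15 and 4.27 CPM. In each of these subclasses the estrus library was the highest. In near-projecting neurons the log2 ratios were 0.71 (-0.05 to 1.60) over diestrus and 0.44 (-0.42 to 1.40) over male, intervals that include 0. These neurons joined 2 clusters. The one led by Nxph1 and Slc17a8 held 20.1, 14.4 and 18.25 CPM from 57, 136 and 82 cells. The one led by Htr2c and Grik1 held 1.98, 1.49 and 1.29 CPM from 18, 85 and 60 cells. The part of this make-up in the ratios was not tested.

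By subclass, the log2 ratio of Wnt10a for estrus over diestrus was 0.80 (0.46 to 1.20) in layer 2/3 IT, 1.17 (0.72 to 2.14) in layer 4/5 IT and 0.51 (0.13 to 0.97) in layer 6 IT neurons. For estrus over male it was 1.10 (0.78 to 1.52), 0.82 (0.24 to 1.77) and 0.86 (0.37 to 1.53) in the same subclasses. At least 2-fold higher in estrus over diestrus were 1 of the 2 members measured in layer 2/3 IT (Wnt4), 2 of 4 in layer 4/5 IT (Wnt4 and Wnt10a) and 1 of 4 in layer 6 IT (Wnt4), against 0.664%, 0.747% and 0.494% of all genes. Over male they were 2 of 2 (Wnt4 and Wnt10a), 1 of 4 (Wnt4) and 1 of 4 (Wnt4), against 1.24%, 1.4% and 0.807%. Wnt4 is in each of these counts and its difference chose the set, so nothing is read from them. The share of layer 2/3 IT neurons with a Wnt10a UMI at 5000 UMIs was 13.3% in estrus (9.38 to 18.1), 8.70% in diestrus (4.84 to 14.2) and 10.4% in male (6.94 to 14.9), intervals that overlap. Oligodendrocyte precursors held 26.0 CPM in estrus, 4.11 CPM in diestrus and 9.74 CPM in male, from only 31, 7 and 13 UMIs.

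Wnt9a, a ligand known from joint development, was not higher in estrus. In glutamatergic neurons it was at 17.7 CPM in estrus, 19.3 CPM in diestrus and 23.5 CPM in male, lowest in estrus and highest in male. The log2 ratio was -0.39 (-0.56 to -0.27) for estrus over male, -0.27 (-0.43 to -0.14) for diestrus over male and -0.12 (-0.26 to 0.01) for estrus over diestrus. Like Wnt4 it was highest among the named neuron subclasses in layer 4/5 IT, at 25.1 CPM in estrus, 34.8 CPM in diestrus and 41.0 CPM in male, but it was also read in layer 6 CT neurons, at 15.9, 18.4 and 21.4 CPM. The glutamatergic cluster without a subclass name held 30.0, 39.5 and 40.7 CPM, above layer 4/5 IT in estrus and in diestrus. In layer 6 IT neurons it was at 12.1, 12.8 and 23.4 CPM, with log2 ratios of -0.89 (-1.39 to -0.50) for estrus over male and -0.82 (-1.27 to -0.47) for diestrus over male.

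Wnt7b, known with Wnt7a as the brain's barrier-inducing ligand and for dendrite growth, differed little between libraries in the subclass that held most of it. Layer 4/5 IT neurons held 42.3 CPM in estrus, 45.3 CPM in diestrus and 43.2 CPM in male, with intervals of all 3 ratios that include 0. Elsewhere the libraries differed more. The cluster without a subclass name held 32.7, 29.1 and 23.2 CPM, with a log2 ratio of 0.48 (0.17 to 0.84) for estrus over male. Layer 5 ET neurons held 21.9, 20.7 and 15.4 CPM. Layer 6 IT neurons held 19.1, 11.98 and 18.1 CPM, lowest in diestrus, and layer 2/3 IT neurons 5.75, 11.5 and 6.02 CPM, highest in diestrus. Over all glutamatergic neurons it was at 25.0, 19.1 and 18.1 CPM, a log2 ratio of 0.37 (0.26 to 0.51) for estrus over diestrus. With subclasses weighted alike that ratio was 0.01, and the levels 17.3, 17.2 and 16.4 CPM. Astrocytes held 37.3 CPM in estrus, 32.2 CPM in diestrus and 34.4 CPM in male, and oligodendrocyte precursors 25.2, 18.8 and 18.0 CPM.

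Wnt7a was read mainly in glia, and also in some interneurons. Astrocytes held 32.8 CPM in estrus, 46.9 CPM in diestrus and 34.8 CPM in male, with diestrus highest. The log2 ratio was -0.50 (-0.79 to -0.24) for estrus over diestrus, 0.42 (0.15 to 0.72) for diestrus over male and -0.08 (-0.36 to 0.19) for estrus over male. Oligodendrocyte precursors held 25.2, 20.0 and 18.0 CPM. Glutamatergic neurons read at most 0.46 CPM of Wnt7a in any library. Vip interneurons averaged 18.0 CPM over the 3 libraries (SD 10.5) and Sst interneurons 8.69 CPM (SD 1.24). GABAergic neurons held 7.46% of the Wnt7a UMIs in estrus, 10.9% in diestrus and 10.6% in male. No member was past 2-fold in astrocytes, out of 2 measured, where 3.34% of all genes were for estrus over diestrus, 4.14% for estrus over male and 0.292% for diestrus over male.

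Wnt5a, the textbook ligand of the branches outside β-catenin, which signals through Ror receptors, was the vascular and interneuron member. Among GABAergic neurons it lay in Sncg interneurons, at 105 CPM in estrus (19 cells), 117 CPM in diestrus (36 cells) and 105 CPM in male (37 cells), and in Vip interneurons, at 105, 60.7 and 97.6 CPM from 24, 36 and 49 cells. Pvalb, Sst and Lamp5 interneurons held at most 10.1 CPM in any library, and GABAergic cells without a subclass name held 90.6, 115 and 162 CPM from 12, 29 and 26 cells. Over all GABAergic neurons the levels were 30.2, 39.6 and 35.3 CPM. The single member measured there was not past 2-fold, in a class where 1.47% of genes were for estrus over diestrus, 1.36% for estrus over male and 0.325% for diestrus over male.

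Endothelial cells held 29.8 CPM of Wnt5a in estrus, 39.1 CPM in diestrus and 50.5 CPM in male, with log2 ratios of -0.38 (-0.58 to -0.20) for estrus over diestrus and -0.74 (-0.98 to -0.54) for estrus over male. These are under 2-fold, in a class where 7.3% of all genes were past it for estrus over diestrus, 12.3% for estrus over male and 1.05% for diestrus over male. The libraries filled the endothelial clusters unevenly. Wnt5a was highest in a small cluster led by Lcn2, Il1r1, Vwf and Slc38a5, at 177 CPM in 112 diestrus cells and 216 CPM in 69 male cells. Only 4 estrus cells fell in that cluster, and the cluster with most estrus cells held 31.9 CPM there. In the cluster led by Gkn3, Bmx and Sema3g, of 305 estrus, 320 diestrus and 250 male cells, Wnt5a was at 22.8, 10.6 and 9.99 CPM, higher in estrus than in the other two. The cluster led by Hmcn1, Cxcl12 and Myct1 held 165 estrus, 1528 diestrus and 1051 male cells. Wnt5a was at 17.6, 18.1 and 23.3 CPM in that cluster. Its log2 ratio there was -0.04 (-1.14 to 0.89) for estrus over diestrus and -0.39 (-1.53 to 0.56) for estrus over male. Both intervals include 0. How much of the class difference comes from the clusters each library filled was not tested.

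Leptomeningeal fibroblasts held 115 CPM of Wnt5a in estrus (27 UMIs), 168 CPM in diestrus (178 UMIs) and 43.0 CPM in male (37 UMIs). Diestrus over male gave a log2 ratio of 1.94 (1.45 to 2.52). Layer 5 ET neurons were the only glutamatergic subclass with more than 3 CPM of Wnt5a, at 6.49 CPM in estrus, 8.25 CPM in diestrus and 18.97 CPM in male, highest in male.

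**Figure D5:**
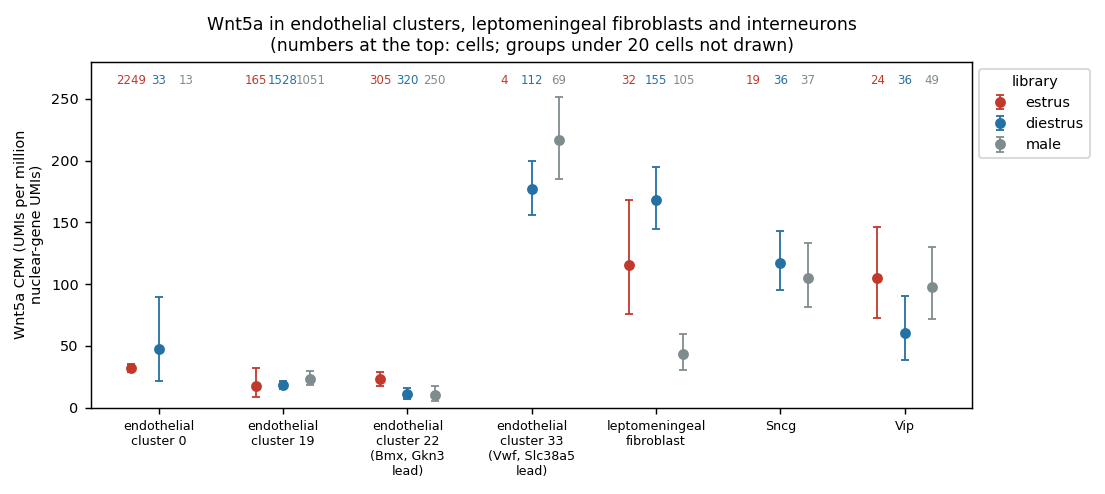
Wnt5a level (CPM, vertical axis from 0) in the 4 endothelial clusters, leptomeningeal fibroblasts and 2 interneuron subclasses of the estrus, diestrus and male libraries; whiskers are exact Poisson 95% intervals, numbers at the top are cells, and groups under 20 cells are not drawn. The cluster led by Vwf and Slc38a5 stands at 177 CPM in diestrus and 216 CPM in male.

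Ordered by the mean of the 3 libraries (SD over libraries, n = 3, each library a different group), over named classes and subclasses with enough cells in every library, Wnt4 was highest in leptomeningeal fibroblasts at 136 ± 59.4 CPM, then layer 4/5 IT at 75.7 ± 39.4, layer 2/3 IT at 46.8 ± 31.9, layer 6 IT at 45.2 ± 33.6 and oligodendrocyte precursors at 26.0 ± 16.2 CPM. The ranges of the 3 libraries overlapped between each of these neighbours. Wnt10a was at 25.2 ± 10.8 CPM in layer 2/3 IT, ahead of precursors at 13.3 ± 11.4 and layer 6 IT at 11.6 ± 3.82 CPM, also with overlapping ranges. Wnt7b ran from layer 4/5 IT at 43.6 ± 1.56 CPM to astrocytes at 34.6 ± 2.60 and precursors at 20.7 ± 3.94 CPM, with no overlap. Wnt7a was at 38.1 ± 7.66 CPM in astrocytes, above precursors at 21.1 ± 3.72 CPM, with no overlap. Wnt9a was highest of these in layer 4/5 IT at 33.6 ± 8.03 CPM, then fibroblasts at 22.6 ± 10.1 CPM, with overlapping ranges. Fibroblasts held 34.2 CPM of Wnt9a in estrus, 15.1 CPM in diestrus and 18.6 CPM in male, from only 8, 16 and 16 UMIs. Wnt5a was highest in fibroblasts at 109 ± 62.8 CPM, then Vip at 87.7 ± 23.7 CPM, also with overlapping ranges. Sncg interneurons, with 19 estrus cells, were too few to enter the order, and their Wnt5a levels of 105 to 117 CPM, given above, lay within the range of fibroblasts.

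Most Wnt ligand genes outside the set were sparse. The other 13 gave 0 to 1296 UMIs each in the retained cells of a library. In glutamatergic neurons 7 of the 19 ligand genes were measured for estrus over diestrus, with a median log2 ratio of -0.12 against -0.01 for all genes. The lowest were Wnt5b, at 1.39 CPM in estrus and 3.25 CPM in diestrus, and Wnt2, at 3.46 and 5.00 CPM.

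The secretion machinery that every Wnt needs differed little beside its cargo. Porcn, the acyltransferase that lipidates Wnts, was at 37.5 CPM in estrus, 40.6 CPM in diestrus and 40.6 CPM in male glutamatergic neurons. Wls, the carrier of Wnts to the cell surface, was at 50.5, 50.9 and 66.6 CPM, highest in male. Tmed2 and Tmed5, cargo receptors of the early secretory path, had log2 ratios of 0.30 and 0.29 for estrus over diestrus. None of the 4 measured secretion genes was past 2-fold in any of the 3 pairs, and their median log2 ratio was 0.14 for estrus over diestrus.

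On the receiving side, 13 Frizzled receptors and co-receptors, 14 secreted inhibitors and R-spondins, 21 cytoplasmic transducers and 11 β-catenin target and nuclear genes were measured in glutamatergic neurons for estrus over diestrus. With 1 CPM added none of them was past 2-fold in any pair, and the medians for estrus over diestrus were -0.22, -0.04, -0.04 and -0.03, beside -0.01 for all genes. For estrus over male the medians were -0.12, -0.01, -0.07 and 0.20, the last from 10 genes, beside -0.06 for all genes. The planar polarity gene Vangl2 was at 2.92 CPM in estrus and 6.65 CPM in diestrus, the co-receptor gene Ror2 at 2.29 and 5.31 CPM, and the R-spondin receptor gene Lgr4 at 14.2 and 20.1 CPM, all lower in estrus. The secreted inhibitor Sfrp1 was at 3.41 CPM in estrus and 1.38 CPM in diestrus, Rspo1, which strengthens Wnt signals, at 7.42 and 3.71 CPM, and Nkd1, a target that dampens the pathway, at 5.56 and 2.90 CPM, all higher in estrus. At such low levels the added CPM holds the log2 ratio down: Vangl2 was at -0.96, Ror2 at -0.94 and Sfrp1 at 0.89, while the CPM values themselves lie more than 2-fold apart.

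Apart from Fzd3, the receptors and co-receptors that reached 20 CPM in a cell type were highest outside glutamatergic neurons. Fzd4 and Fzd6 were highest in endothelial cells, Fzd4 at 301 CPM in estrus, 123 CPM in diestrus and 84.3 CPM in male. Reck and Adgra2, the co-receptors through which Wnt7a and Wnt7b reach endothelial cells, were also highest there, Reck at 101, 133 and 124 CPM and Adgra2 at 92.7, 92.1 and 66.5 CPM. Ror1 and Ror2, the Wnt5a co-receptors, were highest in leptomeningeal fibroblasts, Ror2 at 102, 85.9 and 26.7 CPM. Fzd3 was highest in layer 6 CT neurons at 149 CPM in estrus, 182 CPM in diestrus and 184 CPM in male. Fzd2 and Tmed5 were highest in astrocytes, and Fzd9 in oligodendrocyte precursors.

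Genes with the most similar pattern were sought over 20 classes and neuron subclasses with libraries averaged, as Pearson's r of log2(CPM + 1). The points share libraries, so r is a description. Closest to Wnt4 were 4921539H07Rik (r = 0.85), Smoc2 (0.81), a matrix protein gene, and Igfbp6 (0.80), a growth factor binding protein gene. Closest to Wnt7a was Pou3f4 (0.90), to Wnt7b Zranb3 (0.88), to Wnt9a 4921539H07Rik (0.87), to Wnt5a 4930594M22Rik (0.84) and to Wnt10a Nrn1 (0.81), itself one of the glutamatergic markers. Over 30 points, the 10 neuron subclasses in each library, Wnt4 was most like Igfbp6 (0.91), Herc6, Grasp, Arpp19 and Rtn4r, and among the members most like Wnt7b (0.81), Wnt9a (0.76) and Wnt10a (0.64). In glutamatergic neurons Igfbp6 was at 202 CPM in estrus, 123 CPM in diestrus and 121 CPM in male, and Grasp, a scaffold protein of metabotropic glutamate receptors, at 93.7, 47.7 and 41.3 CPM. Both were picked for likeness to Wnt4 over points that include the libraries, so their order between libraries is no separate finding.

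Wnt4 spans 22238 bases, and the 2872 genes of like length (17.95 to 35.17 kb) stood at a median of 0.01 in glutamatergic neurons on the log2 scale, estrus over diestrus. Wnt10a spans 12664 bases, and genes of 7.94 to 17.95 kb had a median of 0.10, beside the 0.98 of Wnt10a.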

How the data were processed

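The deposited matrices hold raw counts of UMIs per gene and cell barcode. Per the file headers they were made with Cell Ranger 7.0.0, while the submitters' processing notes name Cell Ranger 3.0.2 and mm10. The annotation, intron counting, strand use and cell calling are not stated in the sources used here. The members and lists were chosen with earlier results of these data known. All 6 members are described; of each pathway list, genes with the 2 highest and 2 lowest log2 ratios for estrus over diestrus could be named, and receptors and secretion genes by the class where they were highest, from 20 CPM.

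Cells with at least 500 genes and at most 15% mitochondrial UMIs were kept, and Scrublet scores (scanpy 1.11.5, expected rate 0.1) above 0.3 were removed: 681 estrus, 726 diestrus and 779 male barcodes. Cells were clustered together (Leiden, igraph 0.11.9, resolution 1) on 2000 variable genes, without integration, all Wnt genes kept out, and named from marker lists (3 markers at 20 CPM or more). Names are of the kind "IT-like" although the text shortens them. The limits used for naming were set after the data had been seen. Neurons were clustered again, and sub-clusters led by markers of another class (2.02% of the estrus library, 2.38% of the diestrus library and 5.64% of the male library) were left out. The layer 6 IT name rests on 3 of 5 markers at 20 CPM, 1 being at 0, and the layer 4/5 IT name on 4 of 6. Layer 5 ET neurons include a cluster of 22 diestrus cells and 1 male cell, led by Spink8, with 3 markers detected.

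UMIs were summed per library and class and divided by nuclear-gene UMIs. No test was run. Sums carry exact Poisson, shares Clopper-Pearson and ratios exact conditional binomial intervals, and a count of 0 allows 3 counts. Coordinates are from GENCODE on mm10, to which 32235 of 32285 genes matched by identifier. The ratio code was tested on simulated data. Alternatives used TMM (edgeR 4.0.16) and size factors (DESeq2 1.42.0).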

Additional observations from a re-analysis of the deposited data

Results flagged for a closer look

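Wnt5a differed in opposite directions between 2 vascular cell types in the comparison of diestrus over male. Its log2 ratio was 1.94 (1.45 to 2.52, 215 UMIs in the pair) in vascular leptomeningeal fibroblasts and -0.36 (-0.60 to -0.14, 661 UMIs) in endothelial cells. It was picked because the counting intervals lay on opposite sides of 0 among cell types with at least 100 UMIs in the pair. The difference between the 2 cell types was not tested, as each value rests on 1 library a group. Fibroblasts numbered 155 in diestrus and 105 in male, and their make-up was not compared between libraries. Within endothelial clusters the ratio was -0.35 (-0.82 to 0.09) where Hmcn1 and Cxcl12 led. It was 0.08 (-0.95 to 1.21, 38 UMIs) where Gkn3 and Bmx led, and both intervals include 0. The cluster led by Vwf and Slc38a5 stood at 177 CPM in 112 diestrus cells and 216 CPM in 69 male cells. The part of this make-up in the endothelial ratio was not tested.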

How the results depend on the processing

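In glutamatergic neurons Wnt4 stayed more than 2-fold higher in estrus than in diestrus and in male under all 12 alternatives. For estrus over diestrus (1.67) the log2 ratio was 1.56 with cells gated one by one on marker UMIs, 1.52 with 5 CPM added, 1.26 with subclasses weighted alike and 1.78 with cells thinned to 5000 UMIs. For estrus over male (1.66) it was 1.78 with edgeR TMM factors, 1.79 with DESeq2 size factors, 1.52 with 5 CPM added and 1.42 with subclasses weighted alike. For diestrus over male (-0.01) it was 0.16 with subclasses weighted alike, and the other alternatives gave -0.11 to 0.08. Wnt10a, at 0.98 for estrus over diestrus, ranged from 0.72 with subclasses weighted alike to 1.07 with 0.1 CPM added and passed 2-fold under 4 of 12; over male it ranged from 0.61 to 0.93. Wnt7b for estrus over diestrus (0.37) ranged from 0.01 with subclasses weighted alike to 0.42. Wnt9a for estrus over male (-0.39) ranged from -0.70 to -0.27. Signs of Wnt5a, Wnt7b, Wnt9a and Wnt10a held under all 12 alternatives in each pair, except for diestrus over male, where Wnt7b (-0.01 without low-UMI sub-clusters) and Wnt10a (0.13 with subclasses weighted alike) each changed sign under 1. Genes past 2-fold numbered 162, 412 and 34 in the 3 pairs and stayed within 1.5 times of that under every scaling and with no UMI minimum beyond 1. The causes of these shifts were not tested. No paired analysis was possible because each group had 1 library. Depth limits GABAergic subclasses, fibroblasts and precursors, where 1 to 178 UMIs carry a value.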
